A study of Mus musculus with 12 samples.

Results

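Cholesterol synthesis in mouse testis was followed through 8 enzymes of the pathway, namely Hmgcs1, Idi1, Fdps, Fdft1, Sqle, Lss, Cyp51 and Dhcr7. Every probe whose platform annotation carried 1 of these symbols was taken, which gave 8 probes for 6 of the 8 genes, out of 20355 probes and 9930 named genes on the array. No probe was named for Lss or Idi1, so these genes have no value here. Hmgcs1 and Cyp51 had 2 probes each, and Fdps, Fdft1, Sqle and Dhcr7 had 1 each.

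The arrays compared testis RNA of wildtype males, of Wobbler males (wr/wr) and of Wobbler males with a modifier, named wr/mod in the design text. All 3 groups were on a Castaneus background, and RNA of 3 animals was pooled for each channel. Wobbler is a recessive mutation of Vps54, whose product helps vesicles dock at the Golgi, and it leaves males infertile. The labels name neither the modifier locus nor the age of the mice. Each pair of groups was hybridised on 4 arrays, with the dyes exchanged on 2 of the 4. Nothing in the labels tells whether pools differed between arrays, so p-values measure a spread that may be technical. Values are log2 ratios of the first-named group over the second, without any measure of level. The tissue could therefore not be checked by marker levels, although 14 of 15 late spermatid marker genes had a probe and a tested ratio.

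Cells build cholesterol from acetyl-CoA. Hmgcs1 makes HMG-CoA, which is reduced to mevalonate, and later steps yield the isoprenoids that Fdps joins into farnesyl diphosphate. Fdft1 joins farnesyl units into squalene, Sqle and Lss turn squalene into lanosterol, and Cyp51 and Dhcr7 work on the sterol ring. When membrane sterol is low, the transcription factor SREBP-2 (gene Srebf2) binds sterol regulatory elements beside NF-Y boxes and raises these genes together. In testis the pathway feeds androgen synthesis in Leydig cells, and germ cells use Cyp51 to make sterols linked to meiosis.

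The promoters of Hmgcs1 and Cyp51 are shown because the pathway is known to be controlled as a unit through its promoters, and because these genes had 2 probes each. They are RefSeq sequences of GRCm38.p6, covering the 250 bases before the annotated start, 5′ to 3′ on the gene's strand. The Hmgcs1 window is chr13:119690101-119690350 on the plus strand and the Cyp51 window is chr5:4104698-4104947 on the minus strand. Capitals mark TCACCCCAC, a form of the sterol regulatory element, and CCAAT, the NF-Y box, on either strand (ATTGG is CCAAT read from the other strand).
Hmgcs1: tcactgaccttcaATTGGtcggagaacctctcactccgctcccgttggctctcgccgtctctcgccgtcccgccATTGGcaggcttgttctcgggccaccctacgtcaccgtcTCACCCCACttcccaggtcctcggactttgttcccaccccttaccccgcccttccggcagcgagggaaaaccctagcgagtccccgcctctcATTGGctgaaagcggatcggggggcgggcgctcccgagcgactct
Cyp51: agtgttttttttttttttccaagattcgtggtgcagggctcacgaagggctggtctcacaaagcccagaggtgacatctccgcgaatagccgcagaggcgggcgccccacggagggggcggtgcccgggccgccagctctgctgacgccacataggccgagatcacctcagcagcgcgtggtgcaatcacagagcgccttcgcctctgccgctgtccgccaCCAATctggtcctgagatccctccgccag

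In the Hmgcs1 window TCACCCCAC began 137 bases before the start, and CCAAT lay on the opposite strand at 237, 176 and 45 bases before it. The Cyp51 window held 1 CCAAT, at 29 bases before the start, and no TCACCCCAC. Of all 32851 promoter windows in the table, 0.496% held TCACCCCAC on either strand and 33.8% held CCAAT. The degenerate form TCACNCCAC, which overlaps TCACCCCAC, was in 1.05% of windows and in no further window of the 8 genes. Other forms of the sterol regulatory element were not searched for, so the Cyp51 window is not shown to lack one. The E-box CACGTG was in 6.02% of windows and in 1 of the 3 windows of Dhcr7. In all, 5 of the 8 genes had an entry in the promoter table. A match describes the letters only, and binding was not measured.

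The members were measured less completely than the rest of the array. Of their 96 spots, 72 (75.0%) had a value, against 94.1% of all spots. Of the others 22 were empty and 2 held the code for a spot without a usable ratio. Hmgcs1 was read on 12 arrays by one probe and on 11 by the other, and Fdft1 on all 12. Fdps and Sqle were read on 9 arrays each and Dhcr7 on 7. The probes of Cyp51 were read on 8 and on 4 arrays. Of all probes, 10.4% had a value on 9 or fewer arrays and 0.776% on 4 or fewer. A ratio of small whole numbers was found for 8 of the 72 member values (11.1%) and for 4.19% of all values. These 8 values belonged to Cyp51 (4), Fdps (2), Hmgcs1 (1) and Dhcr7 (1). No intensity was used here, so whether these spots were dim is not known.

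**Figure D1:**
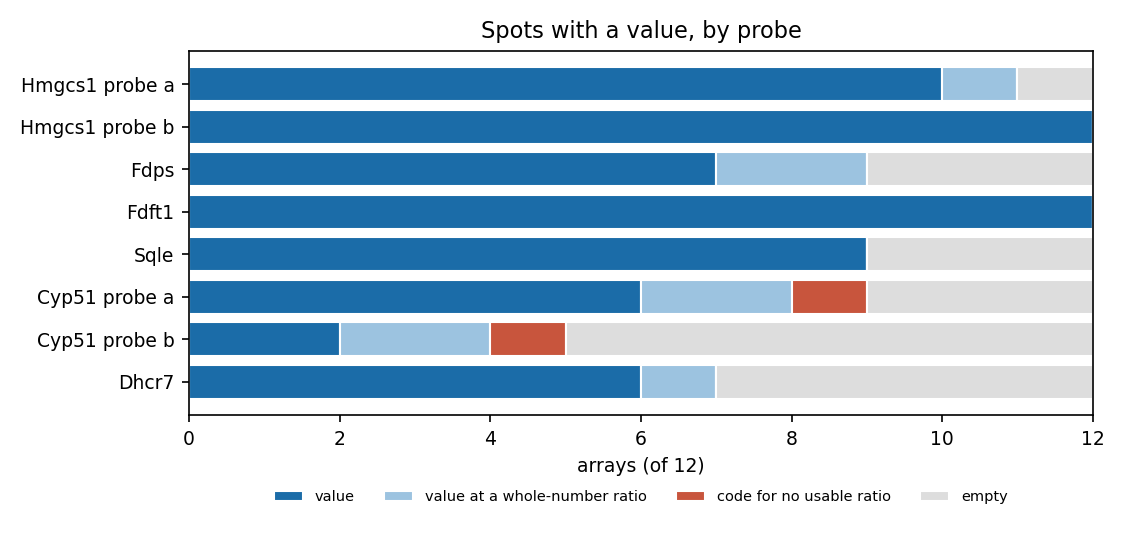
Number of arrays, of 12, on which each of the 8 probes had a value, had a value at a ratio of small whole numbers, held the code for no usable ratio, or was empty. The Fdft1 probe and 1 Hmgcs1 probe had values on all 12 arrays, and the second Cyp51 probe on 4.

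Of 14729 features with a value on at least 3 of 4 arrays in every comparison, 4 were members: Hmgcs1, Fdps, Fdft1 and Sqle. Cyp51 and Dhcr7 were measured on too few arrays for the main test. The direction of the ratios is only likely: its basis is how the arrays were titled and the convention of writing Cy5 over Cy3. The dye-exchanged arrays were turned because their dye labels were exchanged. A check of this turning, which does not bear on which group is on top, was the loop of the 3 comparisons. It closed better with these arrays turned (r = 0.178 across 14975 probes, which are not independent replicates) than without (r = 0.0104).

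None of the 4 tested members passed an adjusted p of 0.05 in any comparison (limma with Benjamini-Hochberg adjustment), and 0 of 4 had an unadjusted p under 0.05. Over all features 0.306% passed in Wobbler over wildtype, 0.733% in Wobbler modifier over wildtype and 0.414% in Wobbler modifier over Wobbler. At an unadjusted p under 0.05 the shares were 15.7%, 7.33% and 11.5%. With 4 genes tested, a count of 0 is near these backgrounds. The median fitted log2 ratio of the 4 genes was -0.24, 0.02 and -0.10 in these comparisons, beside -0.01, 0.01 and 0.08 over all features. Between 1 and 2 of the 4 genes had a positive ratio in each comparison, beside 49.2%, 52.5% and 61.6% of all features. In bulk testis, fewer cells of a type and less RNA per cell cannot be told apart.

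**Figure D2:**
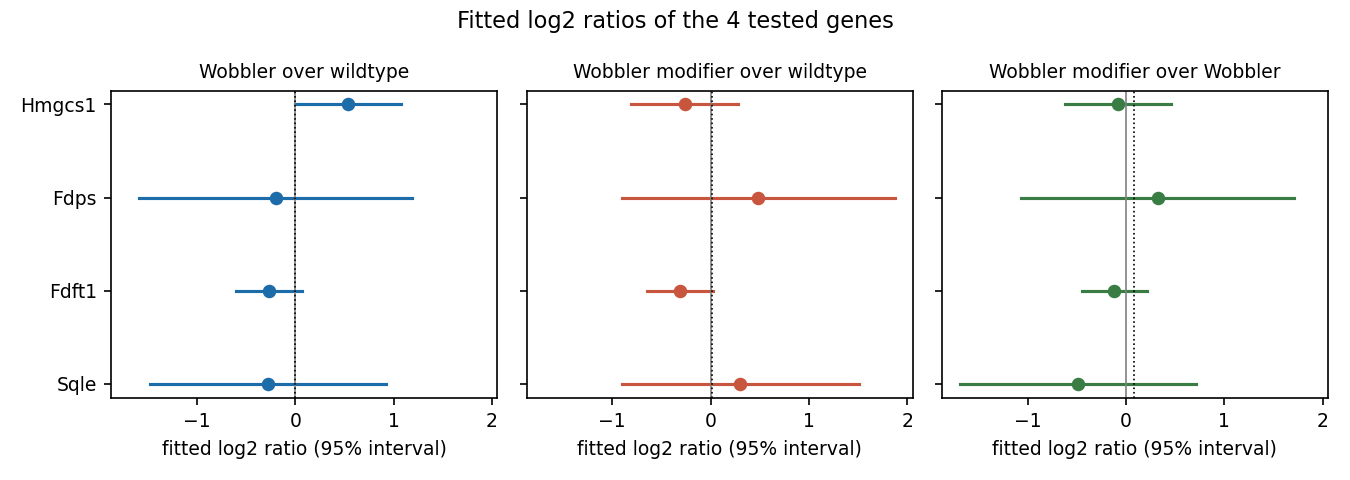
Fitted log2 ratios of Hmgcs1, Fdps, Fdft1 and Sqle (points) with their 95% intervals (lines) in each comparison; the dotted line is the median of all 14729 features. Every interval includes 0, and the intervals of Fdps and Sqle are the widest.

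Hmgcs1, the synthase at the entry of the pathway, had the largest fitted ratio of the 4 tested genes in Wobbler over wildtype, 0.53 ± 0.24 (SE, n = 4; adjusted p = 0.322, limma), with a 95% interval from -0.0055 to 1.07. Its gene values, each the mean of the probes read on that array, were 0.09, 1.98, -0.03 and 0.09 on replicates 1 to 4. Replicate 2 stood alone, and the other arrays lay close to 0. The SD of the 4 values was 0.97, against 0.21 in Wobbler modifier over wildtype, while the fit gives both comparisons the same SE. Fitted on the arrays of this comparison alone, Hmgcs1 had an adjusted p of 0.804 (limma). In that fit 0 of all features passed and Fdft1 had the same adjusted p, so this value is not particular to Hmgcs1. On replicate 2 only 1 of the 2 probes had a value, and that array also had the widest spread of all 12, with an SD of 1.61 over its spots. Without replicate 2 the fitted ratio of Hmgcs1 was 0.10.

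The values of Hmgcs1 in Wobbler modifier over wildtype were -0.02, -0.17, -0.47 and -0.41. All 4 arrays were below 0, a pattern that 10.4% of all tested features showed in this comparison. The fitted ratio was -0.26 ± 0.24 (SE, n = 4), with a 95% interval from -0.80 to 0.27 and an adjusted p of 1 in limma. The probes differed in size: one averaged -0.38 ± 0.20 (SD, n = 4) and was below 0 on 4 of 4 arrays, and the other averaged -0.15 ± 0.28 (SD, n = 4) and was below 0 on 2. Fitted as a feature of its own, the first probe had an unadjusted p of 0.0053 and an adjusted p of 0.202 over 18038 probes (limma).

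Hmgcs1 in Wobbler modifier over Wobbler was at 0.13, 0.09, -0.29 and -0.27, with replicates 1 and 2 above 0 and the dye-exchanged replicates 3 and 4 below it. The fitted ratio was -0.08 ± 0.24 (SE, n = 4), and its 95% interval ran from -0.62 to 0.46. The probes of Hmgcs1 had the same sign on 7 of the 11 arrays that read both. Their median absolute difference was 0.18 on the log2 scale, and the largest was 0.67.

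Fdps makes farnesyl diphosphate, the branch point to sterols and to protein prenylation. Its log2 ratios in Wobbler over wildtype were -0.41, 0.945 and -0.82 on replicates 1, 3 and 4. In Wobbler modifier over wildtype they were -0.50, 0.29 and 1.34 on replicates 1, 2 and 4, and in Wobbler modifier over Wobbler -1.24, 1.66 and 0.22 on replicates 1 to 3. Values on both sides of 0 were thus found in all 3 comparisons. The fitted ratios were -0.20 ± 0.59, 0.48 ± 0.59 and 0.32 ± 0.59 (SE, n = 3 arrays each), with 95% intervals from -1.59 to 1.19, from -0.90 to 1.87 and from -1.07 to 1.71. The spread of Fdps over arrays exceeded that of 75.3%, 93.9% and 94.7% of tested features.

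Fdft1, squalene synthase, commits farnesyl units to sterols and had the smallest SE of the 4 tested members in the fit, which pools the spread of all 12 arrays. On replicates 1 to 4 of Wobbler over wildtype its log2 ratio was 0.20, -0.59, -0.54 and -0.15. It was -0.11, -0.13, -0.45 and -0.57 in Wobbler modifier over wildtype, below 0 on every array. The values in Wobbler modifier over Wobbler were -0.11, 0.34, -0.53 and -0.17. Fdft1 was below 0 on 10 of the 12 arrays. The fitted ratios were -0.27 ± 0.15, -0.31 ± 0.15 and -0.12 ± 0.15 (SE, n = 4 each), which are sizes of 1.21-fold, 1.24-fold and 1.09-fold. The adjusted p-values were 0.395, 0.748 and 0.837 (limma). The 95% interval was narrowest for this gene: it ran from -0.60 to 0.06 in Wobbler over wildtype, from -0.65 to 0.02 in Wobbler modifier over wildtype and from -0.45 to 0.22 in Wobbler modifier over Wobbler. Both comparisons over wildtype contain wildtype RNA, and both comparisons with the modifier contain modifier RNA, so like signs in them are not separate evidence.

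Sqle, squalene epoxidase, sets the pace of the later pathway together with the HMG-CoA reductase step. Its log2 ratios were -0.42, -1.32 and 0.62 on replicates 1, 2 and 4 of Wobbler over wildtype, and 1.57, -1.07 and 0.13 on replicates 1 to 3 of Wobbler modifier over wildtype. On replicates 1, 2 and 4 of Wobbler modifier over Wobbler they were -0.37, -0.98 and -0.40. All 3 arrays of this last comparison lay below 0, while the arrays of the others fell on both sides. The fitted ratios were -0.28 ± 0.51, 0.30 ± 0.51 and -0.49 ± 0.51 (SE, n = 3 each), with 95% intervals from -1.48 to 0.92, from -0.90 to 1.50 and from -1.69 to 0.71. In the modifier comparison over wildtype 97.4% of tested features had a smaller spread over arrays than Sqle.

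**Figure D3:**
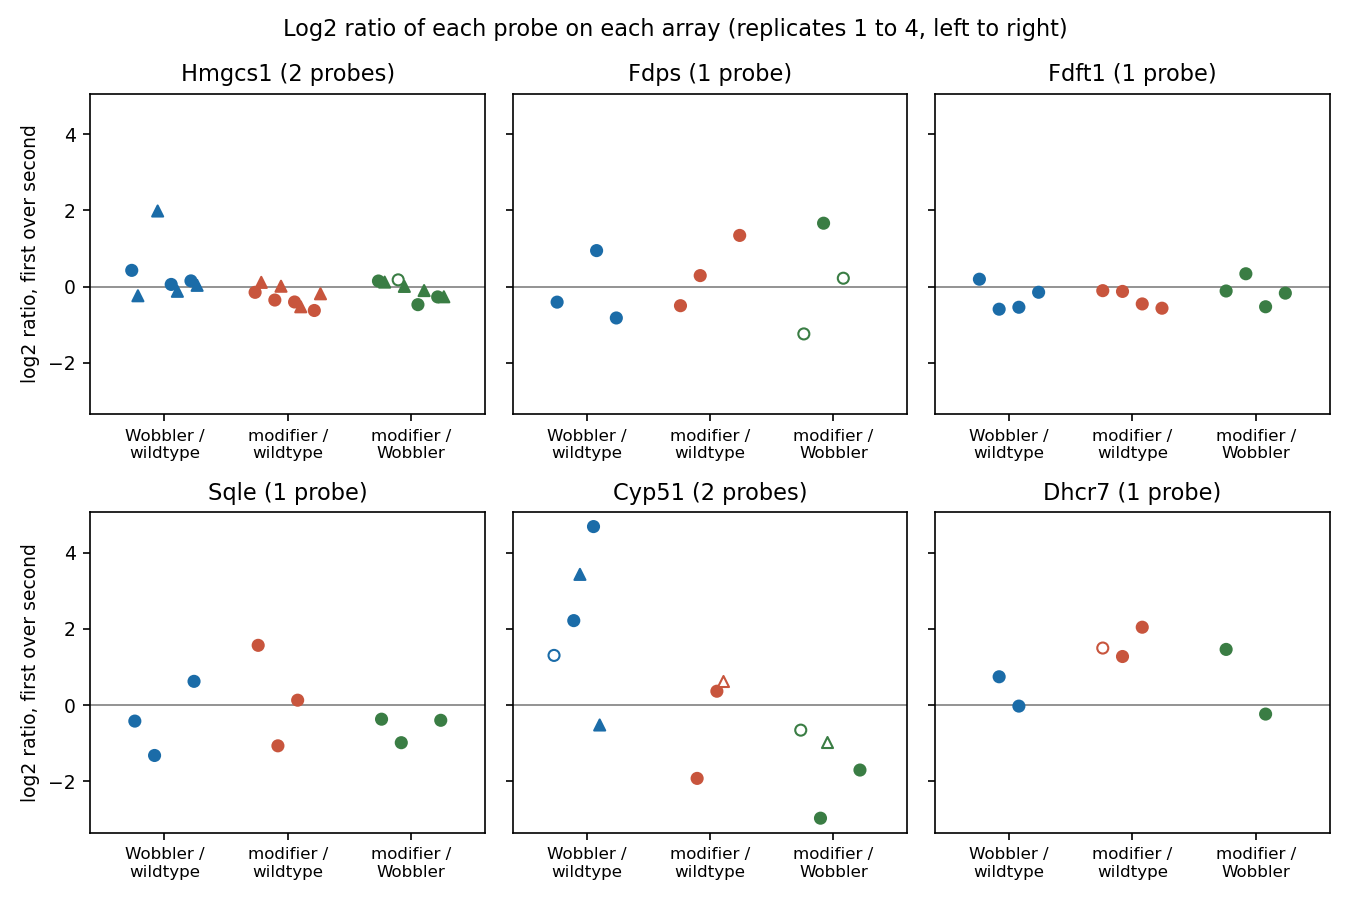
Log2 ratio of every probe of the 6 genes on every array, by comparison, with replicates 1 to 4 from left to right; a triangle is the second probe of a gene and an open symbol a ratio of small whole numbers. Fdft1 and Hmgcs1 lie near 0 apart from Hmgcs1 at 1.98 on replicate 2 of Wobbler over wildtype, and Cyp51 spreads from -2.96 to 4.68.

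Cyp51, lanosterol demethylase, had the largest ratios of the members, and its second probe had the fewest values of the 8 probes. Its first probe was at 1.30, 2.22 and 4.68 on replicates 1 to 3 of Wobbler over wildtype. The second probe was at 3.43 on replicate 2 and at -0.52 on replicate 3. All but 1 of these 5 values were above 0, and on replicate 3 the probes differed by 5.20. In Wobbler modifier over Wobbler the first probe was at -0.66, -2.96 and -1.70 on replicates 1, 2 and 4, and the second at -0.97 on replicate 2. All 4 of these values were below 0. In Wobbler modifier over wildtype the first probe was at -1.92 and 0.37 on replicates 2 and 3, and the second at 0.63 on replicate 3.

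Cyp51 could be fitted only with no filter on missing spots. The fitted log2 ratio was then 2.16 ± 0.54 (SE, n = 3; 95% interval 0.84 to 3.48) in Wobbler over wildtype, with an unadjusted p of 0.00734 and an adjusted p of 0.196 (limma, 16074 features). In Wobbler modifier over Wobbler it was -1.35 ± 0.54 (SE, n = 3; adjusted p = 0.438, limma), and in Wobbler modifier over wildtype -0.71 ± 0.64 (SE, n = 2; adjusted p = 1, limma). None of these passed. Of the 12 values of Cyp51, 4 were ratios of small whole numbers, and 2 of its spots were read as the code for no usable ratio. The part of dim signal in these ratios was not tested.

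Dhcr7, the last enzyme before cholesterol, was at 1.497, 1.28 and 2.04 on replicates 1 to 3 of Wobbler modifier over wildtype. These 3 values were all above 0 and had a mean of 1.61 ± 0.40 (SD, n = 3). Replicates 2 and 3 of Wobbler over wildtype gave 0.74 and -0.03, and replicates 1 and 3 of Wobbler modifier over Wobbler gave 1.46 and -0.23. With no filter, the fitted ratio of Dhcr7 in Wobbler modifier over wildtype was 1.53 ± 0.38 (SE, n = 3; 95% interval 0.55 to 2.50), with an unadjusted p of 0.0104 and an adjusted p of 0.345 (limma). In the other comparisons it was 0.36 ± 0.45 and 0.61 ± 0.45 (SE, n = 2 each). In this fit 1 of 6 members had an unadjusted p under 0.05 in each comparison, and 0 passed after adjustment. Over all features of this fit 15.1%, 7.18% and 11.1% had an unadjusted p under 0.05 in Wobbler over wildtype, Wobbler modifier over wildtype and Wobbler modifier over Wobbler, and 0.243%, 0.622% and 0.355% passed after adjustment.

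The loop of comparisons allows each direct ratio of Wobbler modifier over Wobbler to be set against the indirect one, the difference of the ratios over wildtype. For Hmgcs1 the indirect ratio was -0.80 ± 0.34 (SE) and the direct one -0.08. Its 95% interval ran from -1.56 to -0.04, with an unadjusted p of 0.0419 (limma). Without replicate 2 of Wobbler over wildtype the indirect ratio of Hmgcs1 was -0.36 ± 0.14 (SE; unadjusted p = 0.0285 and adjusted p = 0.329, limma). For Fdft1 the values were -0.04 ± 0.21 (SE) and -0.12, for Fdps 0.69 ± 0.83 (SE) and 0.32, and for Sqle 0.58 ± 0.72 (SE) and -0.49. Without the same array the indirect ratio was -0.22 ± 0.18 (SE) for Fdft1 and 0.16 ± 0.77 (SE) for Sqle. The indirect ratio is also the test of whether the modifier and Wobbler groups differed in their ratio over wildtype. Its adjusted p-values were 0.378 for Hmgcs1, 0.949 for Fdft1, 0.762 for Fdps and 0.767 for Sqle (limma), with 0.577% of all features passing. The difference of direct and indirect ratios passed for none of the 4 genes, with adjusted p-values between 0.726 and 0.938 (limma), and for 0.0272% of all features. For Sqle that difference was -1.07 with a 95% interval from -3.15 to 1.01.

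The members did not share 1 pattern over the arrays. After each array was centred on its median, Hmgcs1 and Cyp51 had r = 0.67 over 8 arrays, Hmgcs1 and Fdft1 r = -0.44 over 12, and Hmgcs1 and Sqle r = -0.37 over 9. Replicate 2 of Wobbler over wildtype decided the sign of both negative values: without it Hmgcs1 and Fdft1 had r = 0.37 over 11 arrays, Hmgcs1 and Sqle r = 0.21 over 8, and Hmgcs1 and Cyp51 r = 0.64 over 7. Fdft1 and Sqle had r = 0.09 over 9 arrays, and r = -0.35 over 8 without that array. Arrays share genotypes and dye orientations and may share pools, so these values are a description. The named genes whose ratios were most like the mean of the tested members over 12 arrays were 4930451I11Rik (r = 0.82), Exosc1 (0.81), Dnajb13 (0.80), Nqo2 (0.79) and Fcgr3 (0.77), the highest of 8043 genes. That mean held 4 members on 6 arrays and 3 on the other 6, where Fdps or Sqle had no value. The listed genes were picked as the highest of many over 12 arrays, and the values that chance would give were not computed.

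Further enzymes of the pathway were also followed. Of 22 synthesis genes including the members, 15 had a probe and 10 were tested, and 0 passed in any comparison. At an unadjusted p under 0.05 there were 1, 0 and 0 genes in Wobbler over wildtype, Wobbler modifier over wildtype and Wobbler modifier over Wobbler. The shares of all features were 15.7%, 7.33% and 11.5% at that threshold and 0.306%, 0.733% and 0.414% after adjustment. The 1 gene was Ebp, a sterol isomerase of the later steps, at -1.88 with an adjusted p of 0.256 (limma). The medians of the 10 genes were -0.12, 0.13 and 0.02. Ggps1, which makes geranylgeranyl diphosphate from the product of Fdps, was at 1.34, -0.12 and 0.58 in the same order. Mvk, mevalonate kinase, was at -0.34, -0.01 and -0.09, and Mvd, the decarboxylase of the mevalonate steps, at -0.03, 0.21 and 0.04. The remaining tested genes were Lbr, at 0.92, 0.23 and 0.71, and Sc5d, at 0.22, 0.06 and 0.005.

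Of 10 tested regulators of the pathway 0 passed in each comparison (limma), beside 0.306%, 0.733% and 0.414% of all features. Unadjusted p-values under 0.05 were found for 2, 1 and 3 of the 10 genes, beside 15.7%, 7.33% and 11.5% of all features. Srebf2, the factor that raises the synthesis genes, was at -0.14, 0.10 and 0.50, the last with an adjusted p of 0.316 (limma). Scap, its escort from the endoplasmic reticulum to the Golgi, was at 0.07, 0.28 and -0.80. Nfyb, an NF-Y subunit, was at -0.63, 0.08 and 0.57, Mylip, a ligase that degrades the LDL receptor, at -0.09, -0.04 and 0.66, and Rnf139, a ligase of sterol-regulated degradation, at 0.59, -0.46 and -0.25.

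Among 14 tested genes of cholesterol uptake, storage and efflux 0 passed in each comparison (limma), beside 0.306%, 0.733% and 0.414% of all features. An unadjusted p under 0.05 was found for 1, 3 and 0 of the 14, beside 15.7%, 7.33% and 11.5% of all features. Lrp1, a lipoprotein receptor, was at -1.07 in Wobbler over wildtype with an adjusted p of 0.121 (limma). Scarb1, the receptor that takes up cholesterol esters from HDL, was at -0.27, -0.32 and -0.13. Apoe, a lipoprotein that carries cholesterol between cells, was at 0.05, -0.24 and 0.16, and Scp2, a sterol carrier, at 0.38, 0.76 and 0.01. The isoprenoid branch had 0 of 7 tested genes passing in each comparison, and 0 with an unadjusted p under 0.05, beside the same shares of all features. Dhdds, which builds dolichol chains, was at -1.28, -0.58 and 0.02, Fnta, a prenyltransferase subunit, at 0.14, 0.06 and 0.34, and Fntb, its partner in farnesyl transfer, at -0.24, -0.03 and -0.23.

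The genes that turn cholesterol into androgens had medians below 0 where the modifier was present. Of 7 tested steroid hormone genes 0 had a positive fitted ratio in Wobbler modifier over wildtype and 0 in Wobbler modifier over Wobbler, with medians of -0.64 and -0.62. Positive fitted ratios made up 52.5% and 61.6% of all features in these comparisons. In Wobbler over wildtype the median was 0.11. Single arrays did not all lie below 0. Tspo, also on this list, was above 0 on 3 of 4 arrays of Wobbler modifier over wildtype, with a fitted ratio of -0.24 ± 0.42 (SE, n = 4). Only Cyp17a1 passed, lower in both modifier comparisons (-2.03 and -1.39), and 6 did not pass. In these comparisons 0.733% and 0.414% of all features passed. An unadjusted p under 0.05 was found for 3 and 4 of the 7 genes there, beside 7.33% and 11.5% of all features. In Wobbler over wildtype it was found for 0 of the 7, beside 15.7%. Hsd3b1, which makes the ketone of steroid hormones, was at 0.11, -0.83 and -0.70, Cyp11a1, the side-chain cleavage enzyme, at -0.36, -0.64 and -0.31, and Fdx1, its electron donor, at 0.46, -0.46 and -0.62. Whether this list differed from the synthesis list was not tested.

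**Figure D4:**
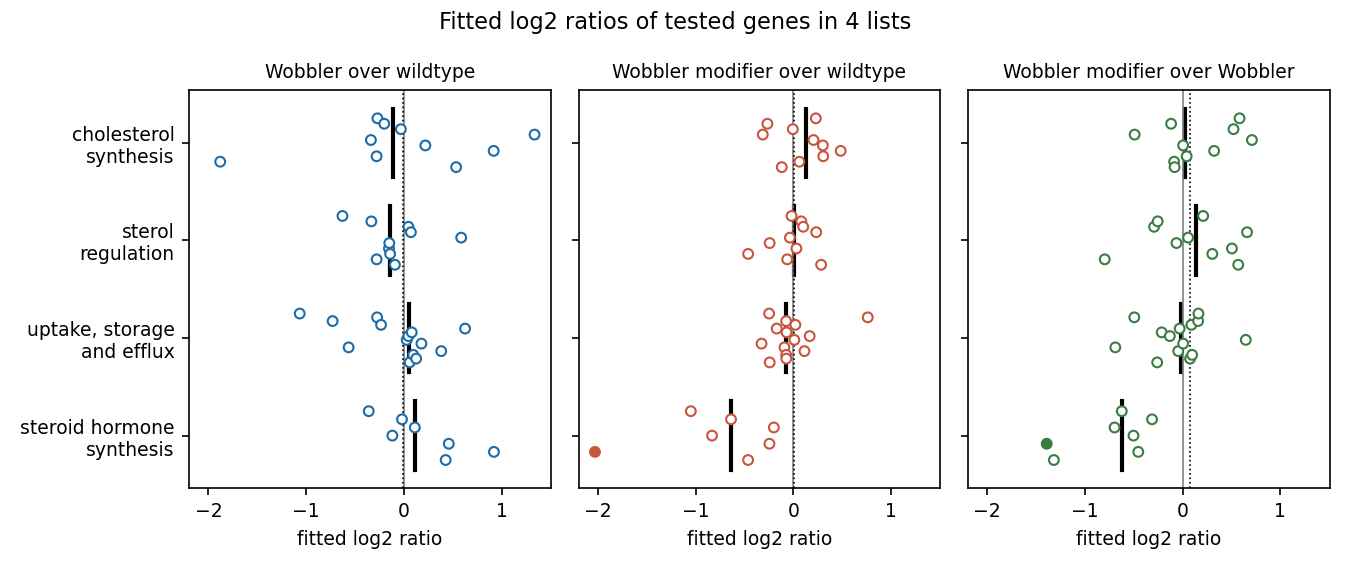
Fitted log2 ratios of tested genes in 4 lists, by comparison; filled points passed an adjusted p of 0.05, black bars are list medians and the dotted line is the median of all features. In the modifier comparisons the steroid hormone genes lie below 0, with medians of -0.64 and -0.62, and the 10 synthesis genes have medians of 0.13 and 0.02.

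Cell type markers moved in the same modifier comparisons. Of 14 tested late spermatid markers 7 were lower and 0 higher in Wobbler modifier over wildtype, and 5 were lower and 0 higher in Wobbler modifier over Wobbler, with medians of -0.87 and -0.62. The 6 Leydig markers, 4 of which are also on the steroid hormone list, had 2 and 1 lower and medians of -0.70 and -0.50. Of 3 meiotic spermatocyte markers 2 and 0 were lower, and of 4 macrophage markers 1 and 0. Spermatogonia (4 markers), Sertoli (6) and peritubular and vessel (4) lists had 0 passing in the modifier comparisons (limma). At an unadjusted p under 0.05 there were 3 Sertoli markers over wildtype, all lower. Over Wobbler there was 1 Sertoli marker, which was higher, and there were 0 of the other 2 lists in both comparisons. In the modifier comparisons over wildtype and over Wobbler, 0.733% and 0.414% of all features passed, and 7.33% and 11.5% had an unadjusted p under 0.05. Of the 41 tested markers of all lists 0 passed in Wobbler over wildtype (limma), 6 having an unadjusted p under 0.05. The shares of all features there were 0.306% and 15.7%. The part of cell makeup in the ratios of the synthesis genes was not tested.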

How the data were processed

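Total testis RNA was labelled with Cy3 and Cy5 and hybridised to 12 two-colour cDNA arrays, per the labels' protocols. The authors deposited 1 log2 ratio per spot; how these were scanned, corrected and normalized is not given in the sources used here. A labelling note on a reference pool of control animals does not match the channel labels, which were followed. The highest repeated value of each array (22 to 165 spots) lay log2(100000) above an array-wide shift and was treated as missing. Whole-number ratios were those up to 5, within 0.001. Replicates 3 and 4 were multiplied by -1. Usable spots numbered 18325 to 19584 per array. Precision is limited by the number of arrays and by how little some of them agreed. The lowest correlation of 2 arrays of one dye orientation was -0.08. When limma weighted the arrays, replicate 2 of Wobbler over wildtype got the lowest weight, 0.16. The highest, 2.88, went to replicate 2 of Wobbler modifier over wildtype.

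Probes of a symbol were averaged. The fit (lmFit and eBayes of limma 3.58.1, R 4.3.3) used all 12 arrays, with 1 mean per comparison and 1 dye term. An SE or 95% interval given for a fitted ratio uses 1 spread per feature over all 12 arrays; n counts the arrays of the comparison. The fit was tested on simulated data. Members, lists and tests were chosen with earlier results of these data known. Genes of the other sterol and steroid lists were named if they passed, or as up to 4 per list with the smallest p. Mvk, Mvd, Lbr, Sc5d and Scap were added after the values were seen, and cell type markers are given as counts. The values without replicate 2 of Wobbler over wildtype were chosen after seeing the data for the indirect ratios and correlations. Symbols came from the platform annotation (14030 probes with 1 symbol, 5 with several, 6320 with none); a GRCm38.p6 gene table held all but 36 identifiers and changed 0.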

Additional observations from a re-analysis of the deposited data

Results flagged for a closer look

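Hmgcs1 on replicate 2 of Wobbler over wildtype had a log2 ratio of 1.98, far from the other 3 arrays. It was the 1 such case among 6 groups of 4 arrays examined, where chance flags about 1 in 20. Only 1 of the 2 Hmgcs1 probes had a value on that array.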

How the results depend on the processing

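The count of members passing was 0 in each comparison under every alternative run, 26 per comparison, and 0 for the loop difference under its 24 alternatives. The number of all features passing varied widely between alternatives. With array weights it was 752 in Wobbler modifier over wildtype. With each comparison fitted alone it was 0, 4 and 0 in the 3 comparisons. Where few or no features passed, a member count of 0 says nothing about the members. The median of the tested members in Wobbler over wildtype moved from -0.24 to 0.13 with a value required on all 12 arrays (2 members) and to 0.079 with no filter (6 members). In Wobbler modifier over wildtype it moved from 0.02 to -0.29 with all 12 arrays required, and to -0.26 both with whole-number ratios left out (3 members) and with code values kept (5 members), so these medians depend on which members enter. Without single arrays the medians ran from -0.32 to 0.01 in Wobbler over wildtype, from -0.33 to 0.12 in Wobbler modifier over wildtype and from -0.30 to -0.06 in Wobbler modifier over Wobbler. With no array turned, Fdft1 was at 0.07, 0.20 and 0.23. Single-gene ratios changed sign without passing in 15 of 303 cases. The lowest adjusted p of a member under any alternative was 0.0518, for Fdft1 in Wobbler modifier over wildtype.

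Deviations of same-numbered arrays had correlations from -0.03 to 0.07, and 4 of 12 arrays correlated best with their own number. Arrays of one dye orientation correlated as low as -0.08, so this check cannot tell whether same-numbered arrays share pools. With the replicate number as a block, Fdps in Wobbler over wildtype was at 0.11 and 0 members passed in each comparison.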
